A study of Gallus gallus with 6 samples.

Results

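The genes described here encode the proteins of the cytosolic ribosome. They were taken from the deposited gene table by name (RPL or RPS with a digit, RPLP0 to RPLP2, RPSA, or the UniProt forms such as RL22_CHICK) or by a description naming a 40S or 60S ribosomal protein. S6 kinases and mitochondrial ribosomal proteins were left out. The rule matched 58 of 17781 entries, and 6 of these were kinases, which left 52. Of the 52, 51 are ribosomal protein entries, 31 of the large and 20 of the small subunit. The remaining one, RPS19BP1, encodes a protein that binds RPS19 and is matched only through its description. It is no ribosomal protein and is given apart. A further 15 ribosomal protein entries, RPL11, RPL10A and RPLP1 among them, carry other wording in the table and lie outside the rule.

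RNA was taken from mesenchyme dissected straight from chick (Gallus gallus) embryos, and polyadenylated RNA was sequenced. There was 1 library for each tissue and Hamburger-Hamilton stage (HH, the staging series of the chick embryo), with no treatment and no genetic change in any group. The 3 limb libraries were forelimb at HH19, hindlimb at HH18 and presumptive forelimb at HH15. Another library carries both tissues, flank and neck, in its HH19 label, and neck alone and flank alone (HH19) had 1 library each. The labels give neither the number of embryos in a library nor their sex, strain or age beyond the stage. Hindlimb was taken at HH18 only and forelimb at other stages, so limb type and stage cannot be told apart between them. Neck and flank are both HH19, while hindlimb and presumptive forelimb are earlier. Tissue and stage are therefore mixed where limb is set against neck and flank. Between 7130877 and 9623046 reads were counted to genes per library. A level below is a CPM, the reads of a gene scaled to the reads counted to all genes of the table in that library (counts-per-million). Gene lengths were not used, so levels are compared between libraries and not between genes.

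A ribosome is built of a small subunit, which reads the mRNA, and a large subunit, which joins the amino acids, and each holds ribosomal RNA and a single copy of most of its proteins. The mRNAs of ribosomal proteins carry a run of pyrimidines at their start (the TOP motif), through which mTOR signalling adjusts their translation together. They belong to the most abundant mRNAs of growing cells. Loss of single members in mammals can give tissue-restricted defects, as in the skeletal phenotype of Rpl38 mutant mice.

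The 51 entries together took a larger share of reads in limb than in neck or flank mesenchyme. The share was 9.69% of counted reads in forelimb HH19 (95% exact binomial interval 9.67 to 9.71), 9.12% in hindlimb HH18 (9.10 to 9.14) and 9.14% in presumptive forelimb HH15 (9.12 to 9.16). In neck it was 7.61% (7.59 to 7.63) and in flank 7.69% (7.67 to 7.71). The lowest limb library thus lay above both non-limb libraries, and neck and flank lay close to each other on this scale. Globin genes took 4.01% of the reads in flank and 0.219% in neck. Without globin genes and the gene with the most reads, neck and flank lay further apart, at 7.98% and 8.56%, against 9.61% to 10.5% in limb. Of all counted reads, the library labelled flank and neck held the highest share of the 6, at 10.86% (10.84 to 10.88). Its label nevertheless names the same tissues as the 2 libraries with the lowest shares. These intervals cover counting error only, and no value has a replicate error, since nothing was sequenced more than once. In such bulk libraries, fewer cells of a type and less RNA per cell cannot be told apart.

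**Figure D1:**
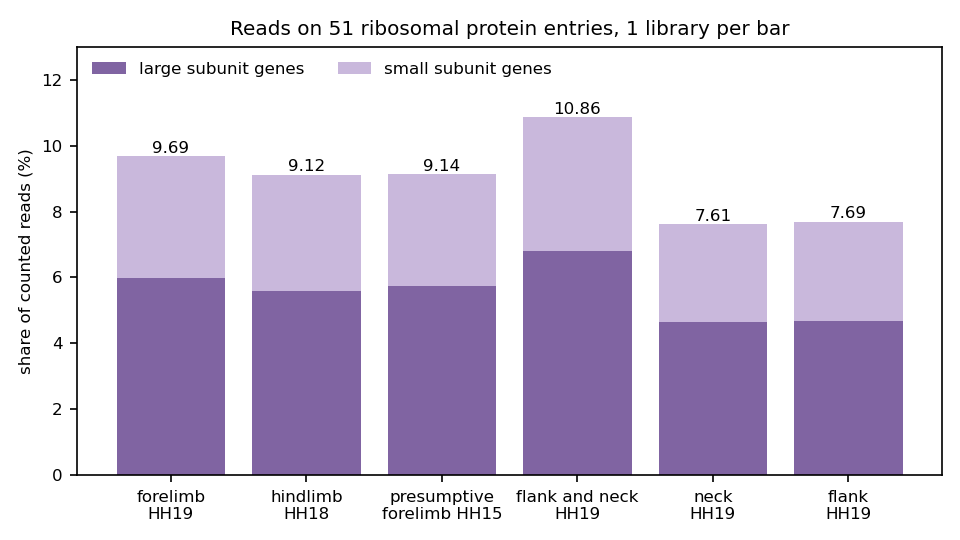
Share of counted reads (%) on the 51 ribosomal protein entries in each of the 6 libraries, with large subunit genes in dark and small subunit genes in light purple. The 3 limb libraries stand between 9.12% and 9.69%, the library labelled flank and neck at 10.86%, and neck and flank at 7.61% and 7.69%.

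Both subunits took part in this. Large subunit genes took 5.97%, 5.6% and 5.74% of reads in forelimb HH19, hindlimb HH18 and presumptive forelimb HH15, against 4.66% in neck and 4.68% in flank. Small subunit genes took 3.72%, 3.53% and 3.40% in the same limb libraries, against 2.95% in neck and 3.01% in flank. The large subunit sum was between 1.56 and 1.69 times the small subunit sum in all 6 libraries. RPL3L, a paralog of RPL3 known from mammalian heart and skeletal muscle, was nearly unread, with 1, 2 and 8 reads in forelimb HH19, hindlimb HH18 and presumptive forelimb HH15, 0 in flank and neck, and 1 each in neck and flank. It passed the filter for testing (1 CPM or more in at least 1 library) only through presumptive forelimb HH15 and is left out of the counts that follow. The other 50 members had at least 10 CPM in some library, and the lowest read count of any of them in a library was 2523.

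Setting the 3 limb libraries against neck and flank addressed which genes separate limb from other mesenchyme. No member passed the quasi-likelihood test of edgeR (adjusted p below 0.05, Benjamini-Hochberg over all 12486 genes tested). That test called 0.0561% of all genes higher and 0.0801% lower in limb. At an unadjusted p below 0.05, edgeR placed 33 of the 50 members higher in limb and 0 lower, against 12.9% of all genes higher and 10.5% lower. Without neck, edgeR placed 6 members higher and 0 lower, against 6.4% of 12229 genes higher and 6.15% lower. DESeq2 called 22 of the 50 higher at an adjusted p below 0.05, and 0 lower, against 7.50% higher and 4.11% lower among the 11513 genes it adjusted, and limma on log2(CPM + 1) called 0. At an unadjusted p below 0.05, limma placed 10 members higher and 0 lower, against 6.24% of all genes higher and 15% lower. The library labelled flank and neck was kept out of these tests. With that library added to non-limb, edgeR placed 0 members higher and 0 lower at an unadjusted p below 0.05. Of 12737 genes, 9.18% were then higher and 8.15% lower. The median edgeR estimate of the members was 0.16 with that library and 0.44 without it. The spread in these tests comes from the different tissues and stages grouped in a class, not from repeats of a tissue.

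Without a test, the members can be described by their values. The limb libraries lay wholly above neck and flank in 36 of 50 members and wholly below them in 0, while 15.4% of all genes tested lay wholly above and 27.5% wholly below. With each library centred on the median of all genes, 44 members lay wholly above and 0 below, against 28% and 16% of all genes. The limb mean of log2(CPM + 1) was the higher one in 48 members. The median difference over members was 0.30, the quartiles lay at 0.15 and 0.36, and the range was -0.09 to 0.64. The median over all genes tested was -0.14 on the same scale. Large subunit genes had a median of 0.30, with 24 of 30 free of overlap, and small subunit genes had a median of 0.30, with 12 of 20. edgeR's TMM scaling moved the median of all genes to -0.02 and that of the members to 0.44, and all 50 edgeR estimates were then above 0. Those of RPS28 and RPS6 were below 0 with scaling by library totals alone.

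**Figure D2:**
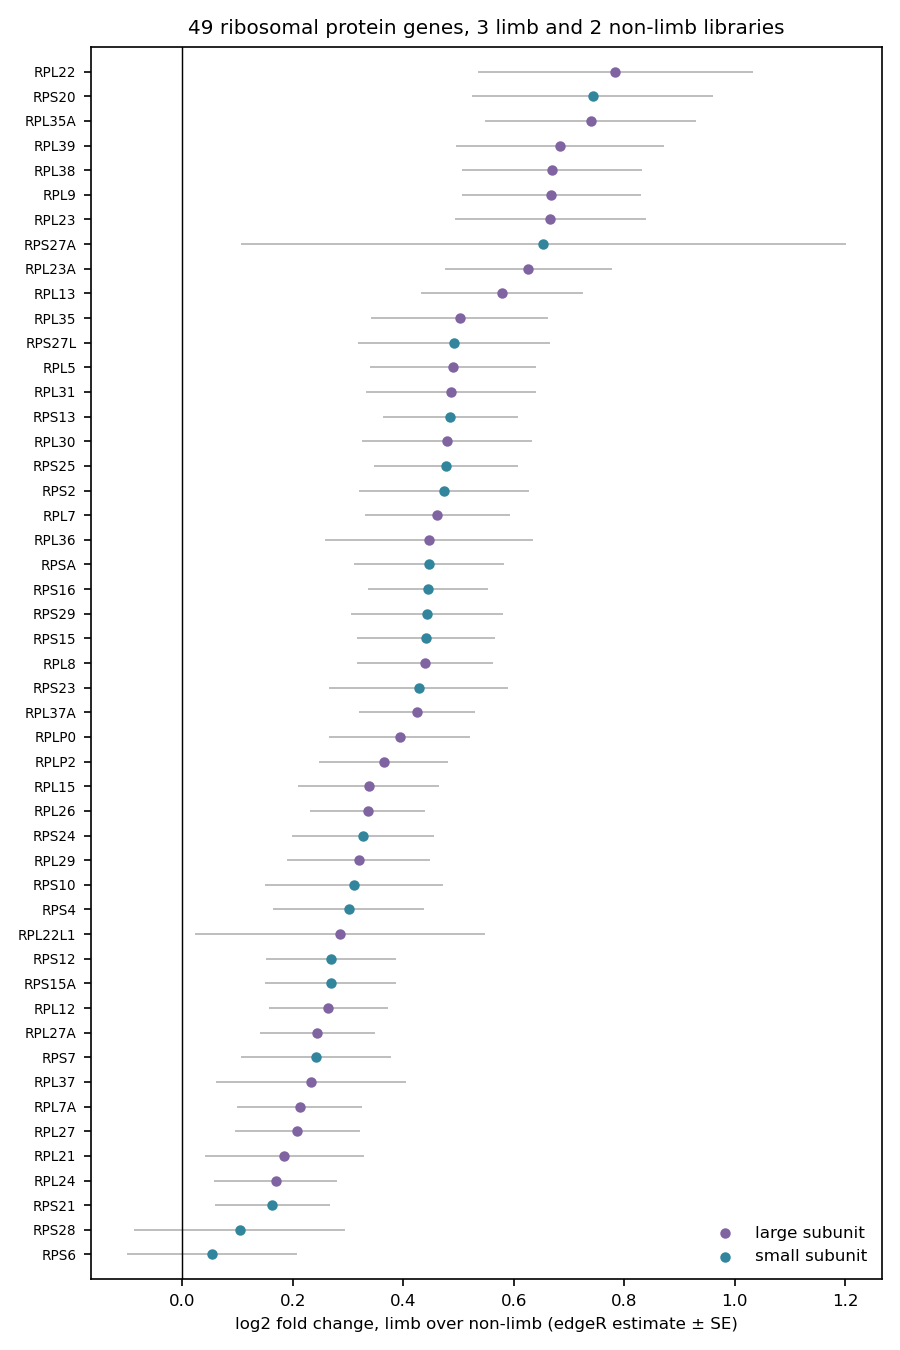
edgeR estimate of the log2 fold change of limb over non-limb for 49 of the 50 ribosomal protein genes, from 3 limb and 2 non-limb libraries. Bars are standard errors derived from the F statistic of the test. Estimates lie between 0.05 for RPS6 and 0.78 for RPL22, and large and small subunit genes are mixed along the order.

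Among large subunit genes, RPL22 had the largest estimate. RPL22 is a protein that ribosomes can work without and that is needed for the development of one class of T cells in mice. It stood at 1879 CPM in forelimb HH19, 1330.2 CPM in hindlimb HH18 and 1251 CPM in presumptive forelimb HH15, against 849 in neck and 1040.0 in flank. The classes did not overlap, and forelimb HH19 stood well above the other limb libraries. Its mean was 1487 ± 342 CPM in limb (SD, n = 3) and 944 ± 135 CPM in non-limb (SD, n = 2), and its log2 fold change was 0.78 ± 0.25 (SE; edgeR adjusted p = 0.140). RPL35A, one of the genes mutated in human Diamond-Blackfan anaemia, stood at 1917, 1368 and 1572 CPM in forelimb HH19, hindlimb HH18 and presumptive forelimb HH15, against 1016 in neck and 1106 in flank. The gap between the classes was as clear here, at 0.74 ± 0.19 (edgeR adjusted p = 0.102). RPL39, a small protein that lines the tunnel through which the new chain leaves, had 4118, 3832 and 3258 CPM in the same limb libraries, against 2334 in neck and 2749 in flank. In all of these genes the library labelled flank and neck, which is in neither class, was above every limb library. It stood at 1979 CPM for RPL22, 2228 CPM for RPL35A and 4387 CPM for RPL39.

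RPL38 is required in mice for the translation of a subset of Hox mRNAs. It stood at 2847, 2433 and 2558 CPM in forelimb HH19, hindlimb HH18 and presumptive forelimb HH15, against 1656 in neck and 1928 in flank. The limb values lay close together and above both others (0.67 ± 0.16, SE; edgeR adjusted p = 0.0943). Flank and neck, at 2638 CPM, lay among the limb values. The table's span of RPL38 overlaps an entry on the other strand that had up to 247 reads in a library. Whether counting used strand is not stated. RPL9, a large subunit protein, had 928, 708 and 796 CPM in the same limb libraries, against 552 in neck and 566 in flank. RPL23, which in human cells also binds the p53 regulator MDM2, had 2791, 2318 and 2149.8 CPM, against 1646 in neck and 1698 in flank. In both of these genes neck and flank were nearly level and every limb library was higher. The library labelled flank and neck was higher still, at 1180.3 CPM for RPL9 and 2908 CPM for RPL23.

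The stalk of the large subunit recruits the GTPases of translation and consists of RPLP0 with RPLP1 and RPLP2. RPLP0 stood at 1759.6, 1713 and 1722 CPM in forelimb HH19, hindlimb HH18 and presumptive forelimb HH15, against 1383 in neck and 1496 in flank. RPLP2 stood at 1653, 1605 and 1918 CPM in the same limb libraries, against 1477 in neck and 1452 in flank. RPLP1, which lies outside the rule, stood at 1714, 1481 and 1569 CPM, against 1284 in neck and 1277 in flank. All 3 stalk genes thus had the classes apart by a modest step, with RPLP0 at 0.39 ± 0.13 and RPLP2 at 0.36 ± 0.12 (SE; edgeR adjusted p = 0.146 and 0.142). The library labelled flank and neck, in neither class, was above every limb library in all 3. It stood at 1873 CPM for RPLP0, 2150 CPM for RPLP2 and 1740 CPM for RPLP1. RPL5 and RPL11 enter the ribosome together with 5S ribosomal RNA. RPL5 had 1881, 2169.8 and 1872 CPM in those limb libraries in turn, against 1457 in neck and 1612 in flank. RPL11, also outside the rule, had 1212, 1094 and 1021 CPM, against 830.3 in neck and 865 in flank. Both had every limb library above neck and flank, with the highest limb value in hindlimb for RPL5 and in forelimb HH19 for RPL11. Flank and neck had 2526 CPM of RPL5, above every limb library, and 1177 CPM of RPL11, among the limb values.

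The large subunit genes RPL24, RPL27 and RPL21 had the smallest estimates of their subunit. RPL24, which forms a bridge to the small subunit, stood at 4876, 4529 and 4890.0 CPM in forelimb HH19, hindlimb HH18 and presumptive forelimb HH15, against 4825 in neck and 4469 in flank. RPL27 stood at 2224, 1991 and 2278 CPM in the same limb libraries, against 2193 in neck and 1919.7 in flank. RPL21 stood at 1718, 2197 and 2192 CPM, against 1922 in neck and 1986 in flank. The classes overlapped in all 3, and the estimates were 0.17 ± 0.11 for RPL24, 0.21 ± 0.11 for RPL27 and 0.18 ± 0.14 for RPL21 (SE; edgeR adjusted p = 0.402, 0.314 and 0.473).

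Among small subunit genes, RPS20 of the 40S head had the largest estimate. It stood at 2825 CPM in forelimb HH19, 2696 CPM in hindlimb HH18 and 2189 CPM in presumptive forelimb HH15, against 1452 in neck and 1896 in flank. Its classes did not overlap (0.74 ± 0.22, SE; edgeR adjusted p = 0.124). Flank and neck, which is in neither class, had 3327 CPM of RPS20, above every limb library. RPSA, which is mutated in human isolated congenital asplenia, had 3593, 3461 and 3256 CPM in the same limb libraries, against 2699 in neck and 2823 in flank. Its estimate of 0.45 ± 0.14 (SE; edgeR adjusted p = 0.131) was close to the family median. RPS27L, a paralog of RPS27 that responds to p53 in human cells, had 1659.9, 1346 and 1345 CPM, against 1065 in neck and 1192 in flank. Flank and neck had 3409 CPM of RPSA, among the limb values, and 1662 CPM of RPS27L, level with forelimb HH19. The entry called RPS27L lies on another chromosome than RefSeq's RPS27L, so which copy of the RPS27 family its reads come from is uncertain. Its span also overlaps an entry on the other strand that had up to 1213 reads in a library.

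RPS27A encodes a small subunit protein fused behind ubiquitin, so that its mRNA supplies both. It stood at 1889 CPM in forelimb HH19 (95% interval 1859 to 1919), 1021 CPM in hindlimb HH18 and 607 CPM in presumptive forelimb HH15, against 551 CPM in neck (535 to 568) and 1072 CPM in flank. It differed widely between libraries within each class, and the classes overlapped (0.65 ± 0.55, SE; edgeR adjusted p = 0.504). RPS6, the ribosomal substrate of S6 kinase, stood at 1754, 2389 and 2432 CPM in those limb libraries in turn, against 2412 in neck and 2207 in flank. Here forelimb HH19 was the low library, and the other 4 lay between 2207 and 2432 CPM. Its estimate, 0.05 ± 0.15 (SE; edgeR adjusted p = 0.857), was the lowest of all members. RPS28 stood at 664, 442 and 556 CPM, against 567 in neck and 563 in flank, with forelimb HH19 highest and hindlimb lowest among these (0.10 ± 0.19, SE; edgeR adjusted p = 0.776). Flank and neck was higher still, at 684 CPM. The span of RPS28 overlaps an entry on the other strand that had up to 6042 reads in a library, where RPS28 had 3965 to 6103. RPS21 was the most even member, at 1684, 1676 and 1769.8 CPM, against 1711 in neck and 1635 in flank, and its highest level over the 6 libraries was 1.08 times its lowest.

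**Figure D3:**
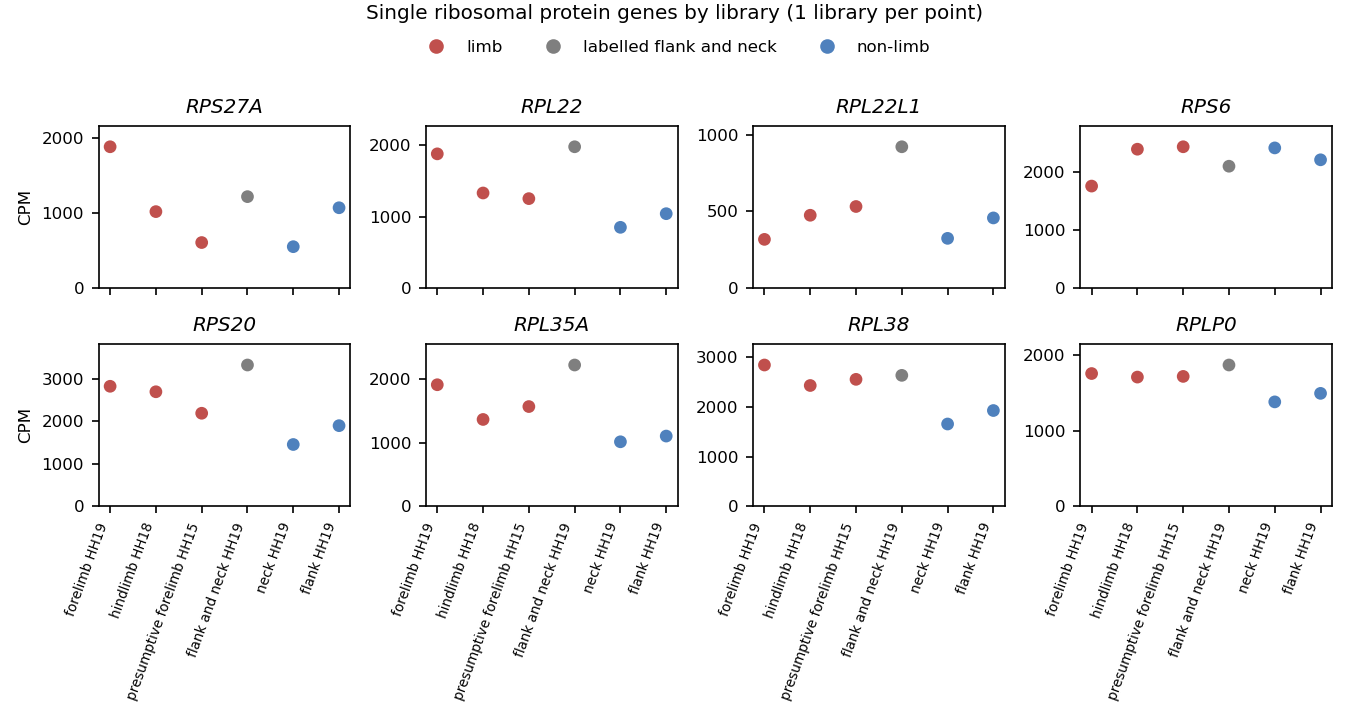
CPM of 8 ribosomal protein genes in each library, 1 point per library, with limb libraries in red, the library labelled flank and neck in grey, and neck and flank in blue. RPS27A runs from 551 to 1889 CPM and RPL22L1 reaches 923 CPM in flank and neck, while RPLP0 stays between 1383 and 1873 CPM.

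Measured against their own median, the members mostly kept step with one another across the libraries. Other abundant genes were not measured in this way, so this closeness is not shown to be particular to the family. For each member, the departure from the family was taken as its log2(CPM + 1) less the median of the 50 members in the same library. The family median was 1738 CPM in forelimb HH19, 1672 CPM in hindlimb HH18, 1739.6 CPM in presumptive forelimb HH15 and 2035 CPM in flank and neck, against 1427 in neck and 1496 in flank. The SD of a member's departure over the 6 libraries had a median of 0.13 on the log2 scale. It was under 0.15 in 29 members and over 0.25 in 6, and RPLP0 kept closest to the family at 0.056. The 6 were RPS27A at 0.60, RPL22L1 at 0.44, RPL22 at 0.32, RPS6 at 0.30, RPS20 at 0.28 and RPL35A at 0.27.

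RPL22L1 is the paralog of RPL22, and in mouse cells RPL22 lowers the level of its mRNA. It stood at 317 CPM in forelimb HH19 (95% interval 305 to 330), 475 CPM in hindlimb HH18, 532 CPM in presumptive forelimb HH15 and 923 CPM in flank and neck (903 to 943), against 324 in neck and 457 in flank. Forelimb HH19 and neck were thus the low libraries, and flank and neck was far above all others. RPL22 itself was high in both forelimb HH19 and flank and neck, at 1879 and 1979 CPM. The ratio of RPL22 to RPL22L1 CPM was 5.93 in forelimb HH19, 2.80 in hindlimb HH18, 2.35 in presumptive forelimb HH15, 2.14 in flank and neck, 2.62 in neck and 2.27 in flank. Forelimb HH19 stood apart in this ratio, and the other 5 libraries lay between 2.14 and 2.80.

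**Figure D4:**
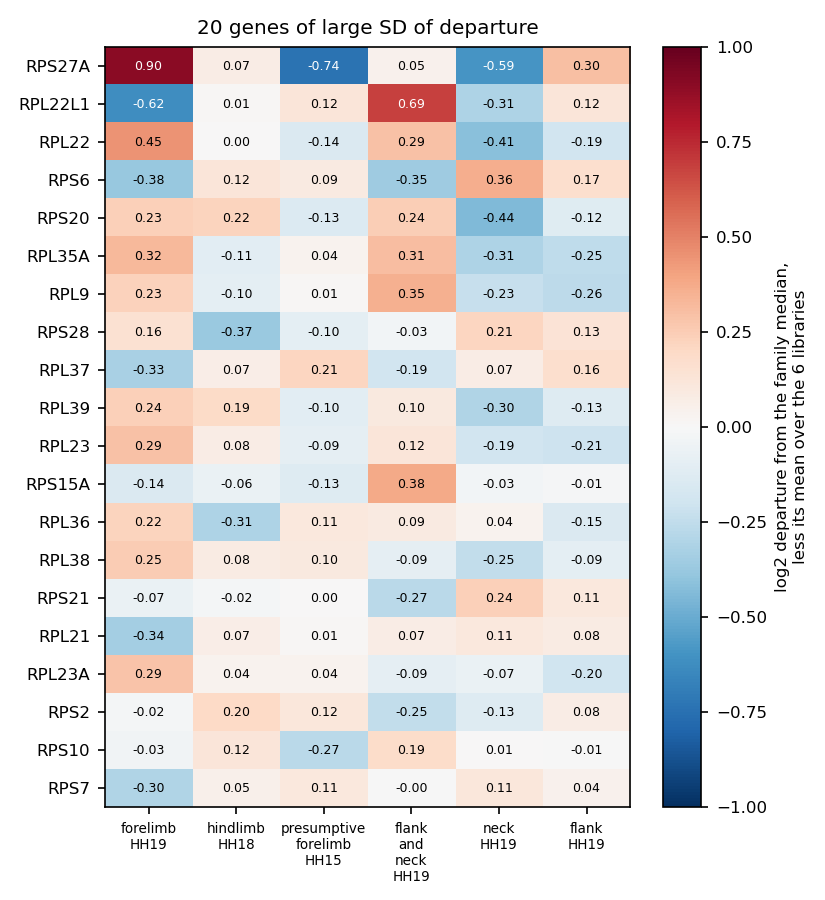
Departure of a gene from the family median of its library, less the gene's mean departure over the 6 libraries (log2), for 20 ribosomal protein genes of large SD. RPS27A runs from 0.90 in forelimb HH19 to -0.74 in presumptive forelimb HH15, and RPL22L1 from 0.69 in flank and neck to -0.62 in forelimb HH19.

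The members RPL37, RPS6 and RPS23 lie on the Z chromosome in the table. Less the gene's mean, the departure of RPS6 was -0.38 in forelimb HH19, 0.12 in hindlimb HH18, 0.09 in presumptive forelimb HH15, -0.35 in flank and neck, 0.36 in neck and 0.17 in flank. That of RPL37 was -0.33, 0.07, 0.21, -0.19, 0.07 and 0.16 in the same order. Both genes were low for the family in forelimb HH19 and in flank and neck. For a wider view, the log2(CPM + 1) of each gene was taken less the gene's mean over the 6 libraries. The median of 563 Z genes so centred, less that of 11363 autosomal genes, was -0.10 in forelimb HH19. It was 0.08 in hindlimb HH18, -0.08 in presumptive forelimb HH15, -0.14 in flank and neck, 0.09 in neck and 0.14 in flank. The part of this difference in the levels of the members was not tested. RPS23, at 2459, 2295 and 1984 CPM in forelimb HH19, hindlimb HH18 and presumptive forelimb HH15 against 1782 in neck and 1878 in flank, did not share the low value in forelimb HH19.

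Single libraries were also compared in pairs, without a test, as differences of log2(CPM + 1). The pairs share libraries and are not independent of one another. Forelimb HH19 over neck had a member median of 0.35, with 11 of 50 members at least 1.5-fold higher and 0 lower, where 9.21% of all genes were higher and 30.2% lower. Forelimb HH19 over flank had a median of 0.35, with 8 members at least 1.5-fold higher (12% of all genes) and 0 lower (21.3%). The medians were smaller in the pairs with other limb libraries. Hindlimb HH18 over neck had a median of 0.31 with 4 members higher (7.25% of all genes) and 0 lower (26.8%), and hindlimb HH18 over flank one of 0.24 with 0 members higher (9.55%) and 0 lower (18.9%). Presumptive forelimb HH15 over neck had a median of 0.28 with 4 members higher (8.78%) and 0 lower (22.2%), and presumptive forelimb HH15 over flank one of 0.25 with 1 member higher (11.1%) and 1 lower (13.1%). Counts of 4 or fewer of 50 are near or under these shares of all genes. The extremes were few genes: RPS27A and RPL22 were 3.42-fold and 2.21-fold higher in forelimb HH19 than in neck, and RPS20 was 1.86-fold higher in hindlimb HH18 than in neck.

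Between limb libraries the median of the family moved little when levels were scaled by library totals. With each library centred on the median of all genes, forelimb HH19 over presumptive forelimb HH15 had a member median of 0.18. So centred, hindlimb HH18 had one of -0.14 over forelimb HH19 and 0.033 over presumptive forelimb HH15. The values that follow are uncentred. Forelimb HH19 over presumptive forelimb HH15 had a member median of 0.08, with 2 members at least 1.5-fold higher (8.42% of all genes) and 1 lower (15%). The 2 were RPS27A, at 1889 CPM in forelimb HH19 and 607 CPM in presumptive forelimb HH15, and RPL22, at 1879 CPM in forelimb HH19 and 1251 CPM in presumptive forelimb HH15. The 1 lower was RPL22L1, at 317 CPM in forelimb HH19 and 532 CPM in presumptive forelimb HH15. The next lowest was RPL37, a zinc-binding protein of the large subunit, at 1320.2 CPM in forelimb HH19 and 1918 CPM in presumptive forelimb HH15. Hindlimb HH18 over forelimb HH19 had a median of -0.09, with 0 members higher (6.71% of all genes) and 2 lower (7.31%), RPS27A and RPS28. Hindlimb HH18 over presumptive forelimb HH15 had a median of -0.02, with 1 member higher (8.09%), again RPS27A, and 0 lower (14.7%). The lowest of that pair was RPL36, at 861 CPM in hindlimb HH18 and 1193 CPM in presumptive forelimb HH15. Neck over flank had a median of -0.04, or -0.22 when centred. In that pair 0 members were higher (13.5%) and 1 lower (5.4%), RPS27A at 551 in neck and 1072 in flank.

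The library labelled flank and neck did not lie between neck and flank. It was above both in 48 of 50 members, where 32.6% of 12737 genes were above both and 48.1% below both, and it was the highest of all 6 libraries in 38 members and in 22.7% of all genes. Its member median was 0.51 over neck, with 19 members at least 1.5-fold higher (14.1% of all genes) and 0 lower (25.6%). Over flank it was 0.47, with 17 members higher (18%) and 0 lower (18.1%). Over neck the largest differences were those of RPL22L1, at 923 CPM in flank and neck against 324 in neck, and of RPL22, at 1979 CPM against 849 in neck. Over flank they were those of RPL9, at 1180.3 CPM in flank and neck against 566 in flank, and of RPL22L1, at 457 CPM in flank. RPS15A, a small subunit protein named after its values were seen, had 1297.5 CPM in flank and neck and between 687 and 785 CPM in the other 5 libraries. The exceptions were RPS6, at 2096 CPM in flank and neck and below both neck and flank, and RPS21, at 1709.7 CPM and between them. The summed level of 8 mesenchyme markers was 980.4 CPM in flank and neck, against 2741 in neck and 2626 in flank, and the globin genes took 0.00446% of its reads, against 0.219% in neck and 4.01% in flank. Their part in these differences was not tested. With this library added to the non-limb class, 1 member in place of 36 lay wholly higher in limb and 0 wholly lower, where 9.31% of 12737 genes lay higher and 14.2% lower, and the median difference of limb over non-limb was 0.12.

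The 15 ribosomal protein entries outside the rule had a median difference of limb over non-limb of 0.37. Of these, 13 were free of overlap and all 13 were higher in limb, where 15.4% of all genes tested lay wholly higher. edgeR called 0 of the 15 over all genes and placed 14 higher at an unadjusted p below 0.05, against 12.9% of all genes. RPL10A, a large subunit protein found in mice to vary among ribosomes, had 2533, 2469 and 2359 CPM in forelimb HH19, hindlimb HH18 and presumptive forelimb HH15, against 1875 in neck and 1916 in flank. In flank and neck RPL10A had 2644 CPM, above every limb library. RPL7L1, a paralog of RPL7, had 165, 162 and 208 CPM in the same limb libraries, against 165 in neck and 148 in flank, and its classes overlapped. RPS19BP1, the binding protein of RPS19, had 89.7, 64.8 and 74.5 CPM, against 62.3 in neck and 53.1 in flank (0.54 ± 0.18, SE; edgeR adjusted p = 0.151).

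Other genes of ribosome production and translation were read in the same edgeR fit. The ribosome assembly list held 48 names, and 33 genes of it were found and tested. Of these 33, 1 was called higher in limb, where 0.0561% of all genes were. This was EMG1, a methyltransferase that modifies 18S ribosomal RNA. EMG1 stood at 188, 157 and 166 CPM in forelimb HH19, hindlimb HH18 and presumptive forelimb HH15, against 74.5 in neck and 72.6 in flank (1.34 ± 0.14, SE; edgeR adjusted p = 0.0465). At an unadjusted p below 0.05, 31 of the 33 were higher and 0 lower, against 12.9% of all genes higher and 10.5% lower. The median edgeR estimate was 0.72, where that of all genes was -0.02. The smallest estimates of the list were those of NOC4L, at 0.05 ± 0.27, and NMD3, the export adaptor of the large subunit, at 0.20 ± 0.23. RNA polymerase I, which transcribes ribosomal RNA, had 10 of 12 genes higher at an unadjusted p, 0 called and a median of 0.67. Of 19 genes on that list 12 were found, and genes with POLR2 names are among them, so the list is not particular to RNA polymerase I. POLR2K and POLR2F had its largest estimates, at 0.93 and 0.79. The subunit POLR2K is shared with the other nuclear RNA polymerases. It had 240.4, 192 and 205 CPM in forelimb HH19, hindlimb HH18 and presumptive forelimb HH15, against 124 in neck and 120.1 in flank.

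Translation factors and related lists were read in the same way. Of all genes, 12.9% were higher and 10.5% lower at an unadjusted p below 0.05. The shares called were 0.0561% higher and 0.0801% lower. The 5 elongation factor genes had a median estimate of 0.29, 0 called and 2 higher at an unadjusted p. EEF1A1, which brings aminoacyl-tRNA to the ribosome, had 8154, 8170.1 and 6802 CPM in forelimb HH19, hindlimb HH18 and presumptive forelimb HH15, against 7255 in neck and 6637 in flank, and its classes overlapped. Of 10 subunits of initiation factor eIF3, 0 were called and 4 were higher at an unadjusted p, with a median of 0.22. Of 15 other initiation factors and of 15 cytosolic aminoacyl-tRNA synthetases, 0 were called and 11 each were higher at an unadjusted p, with medians of 0.51 and 0.46. Of 11 other TOP mRNAs and nascent-chain factors, 0 were called, 3 were higher and 1 was lower at an unadjusted p, with a median of 0.17. The 1 lower was VIM (vimentin), also a mesenchyme marker, at 254, 157 and 85.3 CPM in those limb libraries in turn, against 363 in neck and 658 in flank. A list of 13 names for chaperones of single ribosomal proteins had 5 genes found. RPS19BP1, a binding protein of RPS19, was among them, so the list is not particular to chaperones. Of the 5, 0 were called and 4 were higher at an unadjusted p, with a median of 0.55. The lists held more names than the genes tested. There were 6 names of elongation factors, 13 of eIF3 subunits and 23 of other initiation factors. For synthetases there were 20, and for other TOP mRNAs and nascent-chain factors 15. The lists were not compared with one another by a test.

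**Figure D5:**
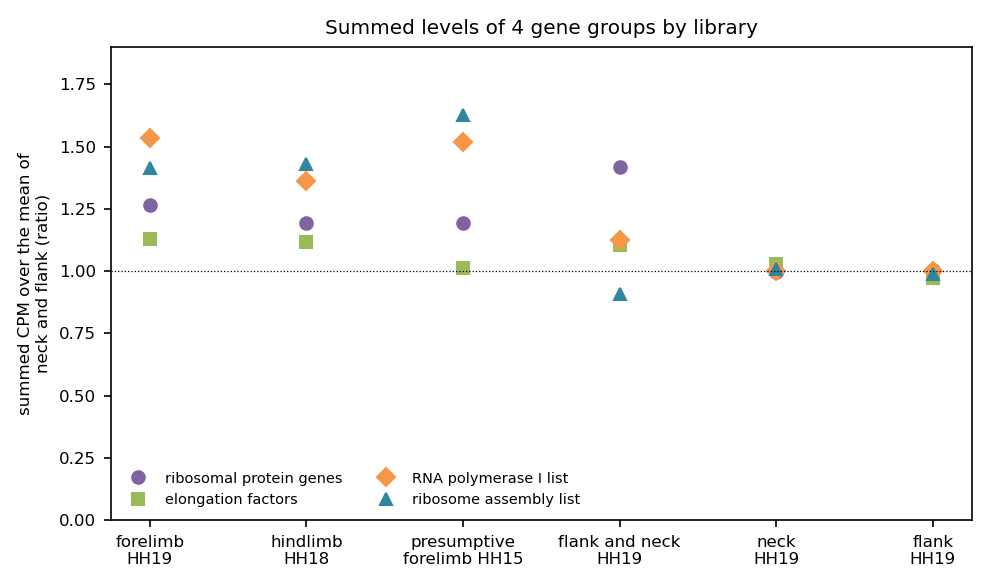
Summed CPM of 4 gene groups in each library as a ratio to the mean of neck and flank. The ribosomal protein genes stand at 1.19 to 1.27 in limb and 1.42 in flank and neck, while the ribosome assembly list stands at 1.42 to 1.63 in limb and 0.91 in flank and neck.

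The summed levels set the ribosomal protein genes apart from the assembly genes in 1 library. As a ratio to the mean of neck and flank, the 51 entries stood at 1.27, 1.19 and 1.19 in forelimb HH19, hindlimb HH18 and presumptive forelimb HH15, and at 1.42 in flank and neck. The assembly genes stood at 1.42, 1.43 and 1.63 in the limb libraries and at 0.91 in flank and neck. The RNA polymerase I genes stood at 1.53, 1.36 and 1.52 and at 1.12, and the elongation factors at 1.13, 1.11 and 1.01 and at 1.11. EEF1A1 made up most of the elongation factor sum, with 6993 of 11821 CPM in flank and neck. Other factors differed there. EEF1B2 stood at 1946 CPM, against 951 in neck and 1063 in flank, and EEF2 at 1734 CPM, against 1852 and 1830. The assembly sum was thus high in limb and a little under neck and flank in flank and neck. The ribosomal protein genes were at their highest in that library, and this difference has no test. The median of all genes was also lower in flank and neck, at -0.19 over neck and -0.04 over flank in log2(CPM + 1). Single assembly genes went both ways there. UTP3 stood at 76.0 CPM, against 43.5 in neck and 51.4 in flank, and EMG1 at 51.6 CPM, against 74.5 and 72.6.

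Markers of mesenchyme and of other cell types were read in the same libraries. The 8 mesenchyme markers measured of 10 summed to between 968 and 1411 CPM in the limb class, against 2741 in neck and 2626 in flank. Of these 8, 6 lay wholly lower in limb, where 27.5% of all genes tested did. COL3A1 was among the 6 by 154.3 CPM in presumptive forelimb HH15 against 154.6 in flank. TCF21 was among them with at most 3.32 CPM in the libraries compared. Of the 8, edgeR called 1 lower (0.0801% of all genes), and 5 were lower at an unadjusted p below 0.05 (10.5% of all genes). The 1 called was COL1A2, a chain of type I collagen, at 326, 339 and 417 CPM in forelimb HH19, hindlimb HH18 and presumptive forelimb HH15, against 1278 in neck and 932 in flank (-1.48 ± 0.14, SE; edgeR adjusted p = 0.0445). PRRX1, a defining gene of limb and flank mesenchyme, overlapped between the classes and was present in all 5 libraries at 261 to 491 CPM, and TCF21 was listed at 0 in hindlimb. Blood and globin markers (5 of 15 measured) summed to between 622 and 3678 CPM in limb, against 1771 in neck and 32618 in flank. Epithelium markers (6 of 10) summed to between 32.4 and 186 CPM in limb, against 121 in neck and 173 in flank. Endothelium markers (8 of 10) summed to between 63.8 and 72.3 CPM, against 188 in neck and 74.7 in flank. Neural markers (6 of 10) summed to between 41.1 and 52.0 CPM, against 32.4 in neck and 25.3 in flank, with 1 or 2 of the 6 at 0 in limb and 3 at 0 in non-limb. The part of these cells in the ribosomal protein levels was not tested, and without globin genes and the gene with the most reads the share of the 51 entries was 9.61% to 10.5% in limb, against 7.98% in neck and 8.56% in flank.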

How the data were processed

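Per the labels, polyA RNA libraries were made with a standard Illumina protocol. TopHat 1.4.0 and galGal4 are named in the submitters' processing notes. The counter, annotation and strand setting are not given in the sources used here. The deposited table's read columns are counts per gene made by the authors, and CPM values were recomputed from them and equal the authors' deposited CPM. Chromosome names in the table do not match that build, so coordinates are not given. Columns were matched to libraries by name, with the initials and stage serving for flank and neck. The flank library's title gives 9 where its source label gives HH19, which was used.

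A gene was tested if any of the 5 libraries compared had 1 CPM of it (12486 genes). Limb against non-limb was fitted with edgeR 4.0.16 (quasi-likelihood, TMM, two-sided, Benjamini-Hochberg over all genes), first tested on simulated data. Its common biological coefficient of variation came to 0.2835. An SE given with an edgeR estimate was computed as the absolute estimate divided by the square root of the test's F statistic. The library labelled flank and neck was left out of the classes. DESeq2 1.42.0 and limma 3.58.1 (R 4.3.3) were alternatives. Differences without a test are of log2(CPM + 1). Intervals are exact (Clopper-Pearson) at 95%, from scipy 1.17.1, with pandas 2.3.3, numpy 2.4.6, matplotlib 3.10.9 and Python 3.11.15.

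The members and the 14 gene lists were chosen with earlier results of these data known. Members to be named were the 8 highest and 6 lowest edgeR estimates, the 6 most variable, the 2 extremes of each pair of libraries in each direction, stalk and paralog genes and members of known special role. The pair extremes RPL7, RPS10 and RPS12 fall under this rule but are not described. Per list, up to 3 genes with the largest and 2 with the smallest estimate could be named. The spans of 21 members overlap other entries, 16 of them on the same strand (mostly snoRNAs of introns) and 6 on the other. Promoter and protein sequences were not used here. A result that the naming rule would include is not reported here.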

Additional observations from a re-analysis of the deposited data

Results flagged for a closer look

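The library labelled flank and neck entered no class, and 3 of its values stand out. Ribosomal protein genes took 10.86% of its reads, against 7.61% in neck and 7.69% in flank. It lay above both of those libraries in 48 of 50 members. RPL22L1 stood at 923 CPM in it, against 324 CPM in neck and 457 CPM in flank. It is 1 library, and none of these differences was tested.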

How the results depend on the processing

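No paired analysis was possible because each tissue and stage has 1 library and no replicate numbers link them. Among alternatives with at least 2 libraries in each class, only DESeq2 called members in limb against non-limb. It called 22 of the 50 higher, against 7.50% of the genes it adjusted. Limma called no gene at all, and neither did edgeR with flank and neck added, without forelimb HH19 or without hindlimb. A count of 0 members in those settings is therefore no result about the members. At an unadjusted p below 0.05, limma placed 10 members higher, against 6.24% of all genes. With flank and neck added to non-limb, edgeR placed 0 members higher at that threshold, against 9.18% of all genes. It placed 26 higher without forelimb HH19 (10.3% of all genes), 27 without hindlimb (10.7%) and 31 without presumptive forelimb HH15 (14.2%). Leaving out 1 library gave 6 (without neck) to 31 members. The median difference of 0.30 was 0.26 (without forelimb HH19) to 0.30 with 1 library left out, 0.12 with flank and neck added and 0.51 with each library centred on the median of all genes. Members without overlap numbered 37 to 41 with 1 library left out (all higher in limb, except 40 higher and 1 lower without forelimb HH19), where 19.1% to 27.2% of all genes lay higher and 31.7% to 47.4% lower. With flank and neck added there was 1, against 9.31% of all genes higher. Single estimates fell below 0 for RPS28 and RPS6 with library totals alone or limma, for RPS28 without forelimb HH19, for RPS6 without hindlimb or presumptive forelimb HH15, and for RPL22L1 without neck, and 44 of 50 estimates were above 0 with flank and neck added. The share of reads without globin genes and the top gene was 10.5% in forelimb HH19, 10.02% in hindlimb, 9.61% in presumptive forelimb HH15, 11.9% in flank and neck, 7.98% in neck and 8.56% in flank. With the 15 entries outside the rule, an alternative chosen after seeing the data, it was 12.05%, 11.3%, 11.2%, 13.2%, 9.28% and 9.35% in the same order. Centring moved the pair medians of forelimb HH19 to 0.69 over neck, 0.52 over flank and 0.18 over presumptive forelimb HH15, those of hindlimb to 0.60 over neck, 0.36 over flank, -0.14 over forelimb HH19 and 0.033 over presumptive forelimb HH15, those of presumptive forelimb HH15 to 0.52 over neck and 0.33 over flank, that of neck over flank to -0.22 and that of flank and neck over neck to 0.72. With totals from genes that are not members, flank and neck stood at 0.56 over neck and 0.52 over flank. Each member has 1 entry in the table, so choosing 1 entry per gene changed nothing. The causes of these changes were not tested. The lowest read count of the 50 members in a library was 2523.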
